A study of Drosophila melanogaster with 4 samples.

Results

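The genes described here encode voltage-gated ion channels and their modulators, calcium channel subunits, proteins of the synaptic vesicle cycle, neuropeptide precursors, and calcium and kinase signalling proteins of neurons. They form a list of 60 genes, and a gene was followed where a spot on the array was annotated with that gene alone. The annotation named spots for 34 of the 60, and 29 of these had a value on at least 1 of 4 arrays. Values on at least 3 arrays, the minimum for a test, were available for 8 genes, against 515 of the 6793 genes named on the array.

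Neurons fire when voltage-gated sodium and calcium channels open, and potassium channels end the spike and set how soon the next one can follow. Calcium that enters at the nerve terminal triggers SNARE proteins to fuse synaptic vesicles with the membrane, and dynamin, endophilin, synaptojanin and clathrin recover the vesicle membrane. Neuropeptides are cut from larger precursor proteins and are released from other, dense-core vesicles. Ethosuximide is used against seizures and, in mammals, blocks calcium channels of the T-type.

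All flies were unmated Oregon-R wild type males, 10 to 11 days old, kept at 30 per vial and then held for 3 days on food with 3.48 mg/ml ethosuximide or on normal food without it. RNA came from pooled whole heads, so that fewer cells of a type and less RNA per cell cannot be told apart. Each of 4 spotted cDNA arrays with 2 colours compared separate pools of drug-fed and normally fed flies and served as 1 biological replicate. The drug sample carried the dye Cy5 on arrays 1 and 2 and the dye Cy3 on arrays 3 and 4.

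The values are log ratios of the dyes, taken as log2, and say nothing about how strongly a gene is expressed. They were read as Cy5 over Cy3 and turned in sign on arrays 3 and 4, so that a positive value stands for more RNA in drug-fed heads. Which dye is the numerator is not stated. The direction of every value is therefore unsettled, and values for the reading in which all columns are already drug over normal food are given as well. Each array was centred on the median of its clones that had values on at least 3 arrays, which lay at 0.74, 0.16, 0.24 and 0.63. A centred value of 0 is thus the typical tested clone. On array 2 the median of all its clones lay at -0.15 after centring, so that a value a little below 0 there can still be above that median. Across the tested clones the arrays correlated at r = 0.53 (arrays 1 and 2) and 0.42 (arrays 3 and 4) within a dye order. Between dye orders r was 0.05 to 0.24 after turning and -0.24 to -0.05 as deposited. The clones are not independent replicates, and the reading of the columns was not tested with these correlations.

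Coverage set what could be seen. Of the 37 clones annotated with a member gene, 26 had a value on array 1, 22 on array 2, 8 on array 3 and 3 on array 4. These are 70.3%, 59.5%, 21.6% and 8.11% of the member clones, against 43.4%, 25.8%, 8.04% and 5.60% of the 7558 clones with 1 gene name. The member clones were thus measured more often than named clones at large on each array, but the list was drawn up with earlier results known and no test was made of this. Of the marker genes of photoreceptors 6 of 7 with a probe had a value and 5 were on at least 3 arrays, among them the arrestin gene Arr1, the light-activated channel gene trpl and the scaffold gene inaD. Of the 4 general neuronal markers with a probe, Appl, nrv3 and Rbp9 had values, each on 1 or 2 arrays, and CadN had none.

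**Figure D1:**
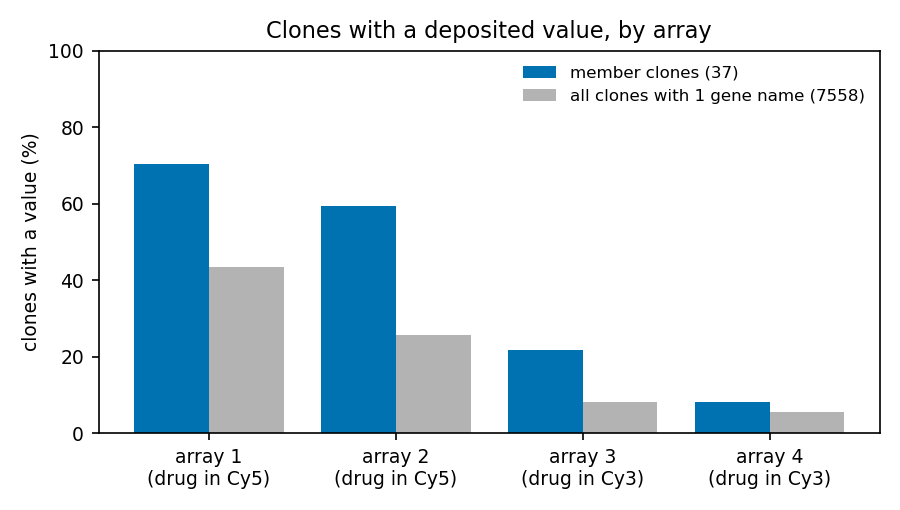
Share of clones with a deposited value (%, y axis) on each array (x axis), for the 37 member clones (blue) and the 7558 clones with 1 gene name (grey). The member share is the higher one on every array and drops from 70.3% on array 1 to 8.11% on array 4.

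No gene of the list passed the test for a difference between drug-fed and normally fed heads. In limma's one-class fit over all 967 rows (515 genes and 452 clones with no or several names), 0 of the 8 tested genes had an adjusted p under 0.05, where 1.34% of all rows did. At an unadjusted p under 0.05 the count was again 0 of 8, against 12.0% of all rows, and in the unmoderated test 0 of 8 passed as well, with a lowest unadjusted p of 0.0768. The adjusted p of the 8 genes in limma's test lay between 0.536 and 0.941. Their mean centred log2 ratios were above 0 for 5 genes and below 0 for 3, with a median of 0.07 beside 0.002 over all rows. In size the median was 0.13, beside 0.14 over all rows, and the largest was 0.26, while the smallest ratio of any row that passed was 0.61.

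**Figure D2:**
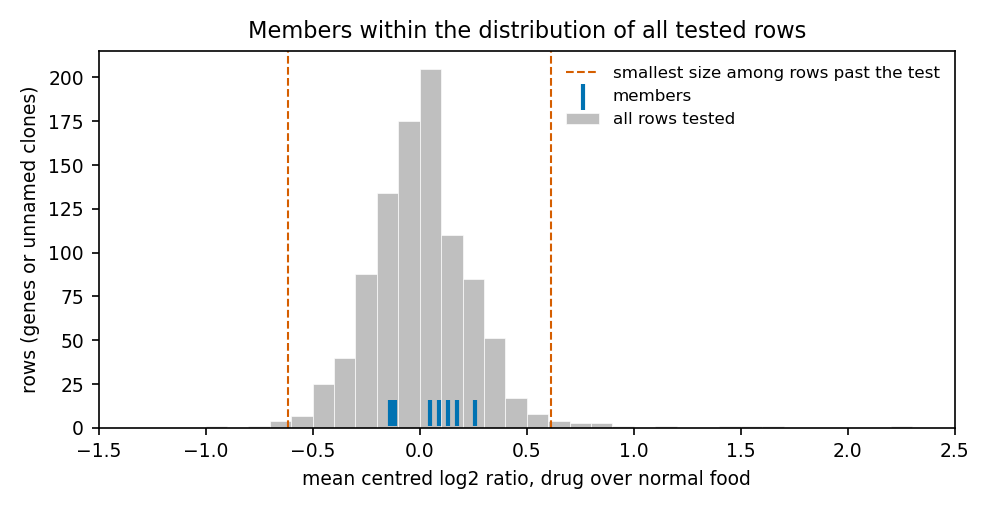
Histogram of the mean centred log2 ratio of drug over normal food for all 967 tested rows (x axis, ratio; y axis, number of rows), with the 8 tested member genes as blue ticks. Dashed lines mark plus and minus 0.61, the smallest size among rows that passed, and all 8 members lie between them.

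The 95% intervals of limma's fit bound what the arrays leave room for in these genes. All 8 intervals include 0. Their lowest bound was -0.52, or 0.698-fold, for the allatostatin gene AstC, and their highest was 0.63, or 1.55-fold, for the kinase gene Pkc53E. None of them reaches 2-fold in either direction, on the reading used here, with centred values and with a spread that limma shares over all rows. Without centring that shared spread was an SD of 0.62 in place of 0.27, and the bound does not extend to those values. Intervals from the spread of each gene alone were not computed. They can be wider, as for Nplp1, AstC and Pkc53E, whose SDs of 0.41, 0.35 and 0.31 were the highest of the 8. The SD over arrays had a median of 0.23 for the 8 genes and of 0.25 for all rows.

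Sh encodes Shaker, the A-type potassium channel of axons and terminals that repolarises the membrane after a spike, and it was the one channel gene on 3 arrays. Its centred log2 ratios were 0.02 on array 1, 0.02 on array 2 and 0.36 on array 3. The 3 values share a sign, but array 1 lies at 0 within the difference between duplicate spots, and array 2 averages clones of opposite sign. Without array 3 the mean was 0.02. The mean was 0.13 ± 0.19 (SD, n = 3), with a limma interval from -0.20 to 0.47 and an adjusted p of 0.780. A second Shaker clone, measured on array 2 alone, lay at -0.18 there beside 0.22 for the first, and the value of 0.02 is their average. The first clone taken alone lay at 0.02, 0.22 and 0.36 on arrays 1 to 3, with a mean of 0.20 (limma adjusted p = 0.593).

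The other potassium channel genes had values on 1 or 2 arrays, all with the drug in Cy5, so that an effect of the drug and one of the dye cannot be told apart in them. Shab, a delayed rectifier, lay at -0.15 and -0.05 on arrays 1 and 2. Shal, the A-type channel of dendrites and cell bodies, lay at -0.64 on array 1, but its duplicate spots there read 1.19 and -0.99 as deposited, the widest gap of all member clones. Elk, a channel of the ether-a-go-go family, lay at 0.44 on array 1, with duplicate spots of 0.66 and 1.70 as deposited. These are the potassium channel values farthest from 0 on array 1, and both come from clones whose duplicates disagree by over 1 unit. Ih, the channel opened by hyperpolarisation that carries mixed cations, lay at -0.13 on array 1. The inward rectifier gene Irk2 lay at -0.23 on array 2. Probes for sei, Irk1 and Irk3 gave no value, and no probe was named for Shaw, eag, slo, SK or KCNQ.

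Among genes whose products adjust channels, the values were close to 0. The gene tipE, whose product is an auxiliary subunit of the voltage-gated sodium channel, lay at -0.17 on array 1. No probe was named for the pore genes para and NaCP60E. The product of qvr is a membrane-anchored modulator of Shaker, and this gene lay at -0.13 on array 1. Slob, which encodes a binding partner of the calcium-activated potassium channel, lay at -0.13 and -0.0025 on arrays 1 and 2. All these values are below 0, and each lies between the 25th and 75th percentile of its array. The Shaker beta subunit gene Hk and the chloride channel gene ClC-a had no probe named for them.

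The calcium channels that the drug blocks in mammals are of the T-type, and this list holds no T-type pore gene. Both listed auxiliary subunits of calcium channels were thinly measured. The gene stj encodes the alpha2delta subunit, which carries calcium channels to the presynaptic membrane. It lay at -0.86 on array 1, at the 3.27th percentile of that array's clones and the lowest member value on any array. On array 3 it lay at 0.40 after turning. The arrays therefore point opposite ways under the reading used here, whereas as deposited both are below the centring value, by 0.86 and 0.40. Its duplicate spots agreed on both arrays, at -0.18 and -0.05 on array 1 and at -0.09 and -0.23 on array 3 as deposited. Ca-beta, which encodes the intracellular beta subunit, had 1 value, -0.14 on array 2.

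**Figure D3:**
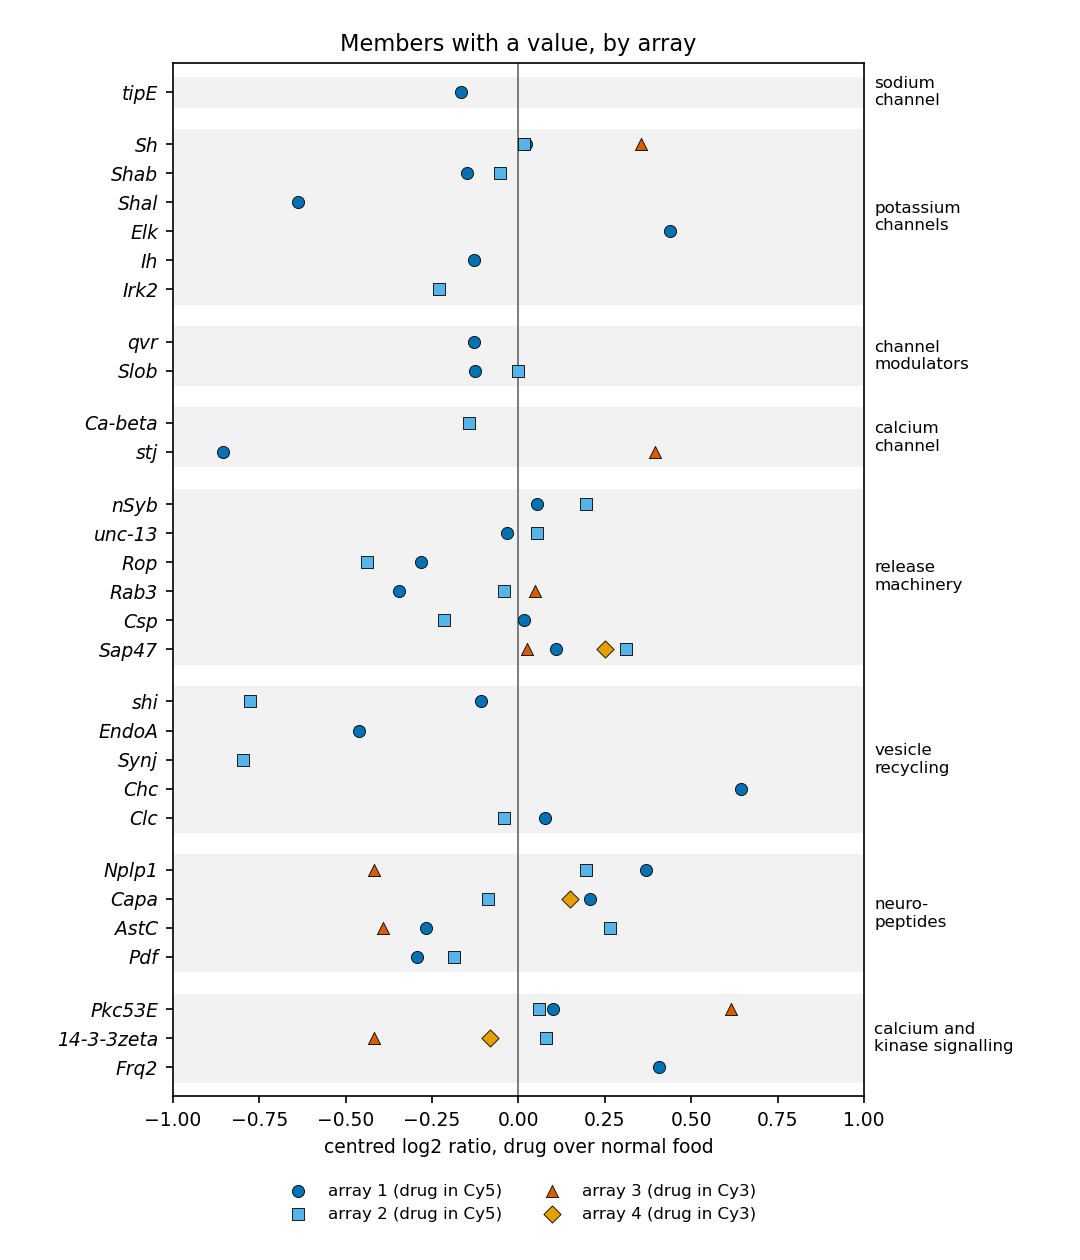
Centred log2 ratio of drug over normal food (x axis) for the 29 member genes with a value, grouped by role (y axis). Each point is 1 array, with circles and squares for the drug in Cy5 and triangles and diamonds for the drug in Cy3, and 21 of the genes have 1 or 2 points.

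Release genes lay on both sides of 0. Sap47 encodes a protein of presynaptic vesicles and was the one member measured on all 4 arrays. Its values were 0.11, 0.31, 0.02 and 0.25 on arrays 1 to 4. All 4 are above 0, and their SD was the smallest of the tested members. The mean was 0.17 ± 0.13 (SD, n = 4), with an interval from -0.09 to 0.44 and a limma adjusted p of 0.549. Rab3, the small GTPase that marks vesicles ready for release, lay at -0.35, -0.04 and 0.05 on arrays 1 to 3. Array 1 is apart from the other arrays for Rab3, and its mean was -0.11 ± 0.21 (SD, n = 3, limma adjusted p = 0.830).

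Further release genes were measured on arrays 1 and 2 alone. Rop, the Sec1/Munc18 protein that holds and guides the plasma membrane SNARE, lay at -0.28 and -0.44, below 0 on both arrays. In contrast nSyb, the neuronal vesicle SNARE synaptobrevin, lay at 0.06 and 0.19. Both spread less between the arrays than the median gap of 0.25 over all rows measured on arrays 1 and 2. The vesicle priming gene unc-13 lay at -0.03 and 0.05, and Csp, the cysteine string protein that acts as a chaperone on vesicles, at 0.02 and -0.21. For unc-13 these are averages of its pair of clones, which lay at -0.13 and 0.07 on array 1 and at -0.08 and 0.18 on array 2. No probe was named for Syt1, Syt4, Syx1A, Snap25, cpx, brp, Syn, Rph or comt.

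Genes of vesicle recycling ranged from -0.80 to 0.64, none of them on more than 2 arrays. The dynamin gene shi, whose product pinches vesicles off the membrane, lay at -0.11 on array 1 and -0.78 on array 2. The gap of 0.67 between these arrays is the largest of the 16 members measured on both. Synj, the lipid phosphatase synaptojanin that strips clathrin coats, lay at -0.80 on array 2, with duplicate spots of -0.89 and -0.38 as deposited. EndoA, the membrane-bending protein endophilin, lay at -0.46 on array 1, with duplicate spots of 0.50 and 0.06 as deposited. Chc, the clathrin heavy chain, lay at 0.64 on array 1, at the 94.3rd percentile and the highest member value on any array. Its duplicate spots read 1.48 and 1.28 as deposited. Clc, the clathrin light chain, lay at 0.08 and -0.04 on arrays 1 and 2. On array 1 Chc and Clc lay above the median of all clones, and shi and EndoA below it. On array 2, where that median lay at -0.15, Clc was above it at the 62.5th percentile. There shi and Synj were below it, at the 12.5th and 11.9th percentile. None of the group had a value on a dye-swapped array. Rab5, an endosome GTPase gene, had no probe named for it.

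Of the 4 measured neuropeptide genes 3 reached 3 arrays, and their values lay on both sides of 0. Nplp1, which encodes a precursor of several small peptides of the brain, lay at 0.37 and 0.19 on arrays 1 and 2 and at -0.42 on array 3. The sign turns with the dye, and the mean was 0.05 ± 0.41 (SD, n = 3, limma adjusted p = 0.941). AstC, the precursor of allatostatin C, lay at -0.27, 0.27 and -0.39 on arrays 1 to 3, with a mean of -0.13 ± 0.35 (SD, n = 3, limma adjusted p = 0.830). Here arrays of the same dye order oppose each other. Capa encodes peptides best known for acting on the renal tubules and lay at 0.21, -0.09 and 0.15 on arrays 1, 2 and 4, with a mean of 0.09 ± 0.16 (SD, n = 3, limma adjusted p = 0.864). Pdf, the transmitter of circadian clock neurons, lay at -0.29 and -0.19 on arrays 1 and 2. No probe was named for sNPF or Tk.

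Of the signalling genes, Pkc53E had the largest mean of the tested members. It encodes a conventional protein kinase C that calcium and diacylglycerol activate. Its values were 0.10, 0.06 and 0.62 on arrays 1 to 3, all above 0 and with array 3 far from the others. Without array 3 its mean was 0.08, below those of Nplp1 (0.28) and Sap47 (0.22). The mean was 0.26 ± 0.31 (SD, n = 3), with an interval from -0.11 to 0.63 and a limma adjusted p of 0.536. 14-3-3zeta, an adaptor that binds phosphorylated proteins and is needed for olfactory learning, lay at 0.08, -0.42 and -0.08 on arrays 2 to 4, with a mean of -0.14 ± 0.25 (SD, n = 3, limma adjusted p = 0.775). Frq2, the neuronal calcium sensor frequenin, lay at 0.41 on array 1, with duplicate spots of 0.90 and 1.39 as deposited. These differ by 0.48, more than the value itself. Probes for Frq1 and Cbp53E gave no value. Cam, CaMKII, rut, dnc and Pka-C1 had no probe named for them.

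Arrays 1 and 2 share a dye order and can be compared whatever the numerator. Of the 9 members measured on these arrays alone, 3 (Rop, shi and Pdf) were below the median of all clones on both, against 32.3% of the 1224 rows measured on these arrays alone. Above it on both were 2 (nSyb and Clc), against 26.0% of those rows, and 4 lay on opposite sides. The median absolute difference between the arrays was 0.15 for the 16 members on both and 0.25 for all 2093 rows on both. Of the members on a single array, 7 of 11 were below the median of all its clones, against 53.8% of the 3623 rows on a single array. The median over members was -0.11 on array 1 (25 genes), -0.04 on array 2 (20 genes), 0.04 on array 3 (8 genes) and 0.15 on array 4 (3 genes), which are different sets of genes. Over all clones with a value it was -0.0060, -0.15, 0.06 and 0.04. Duplicate spots of member clones differed by 0.20 in the median, as those of all clones did, so that values this close to 0 are of the order of the difference between spots.

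**Figure D4:**
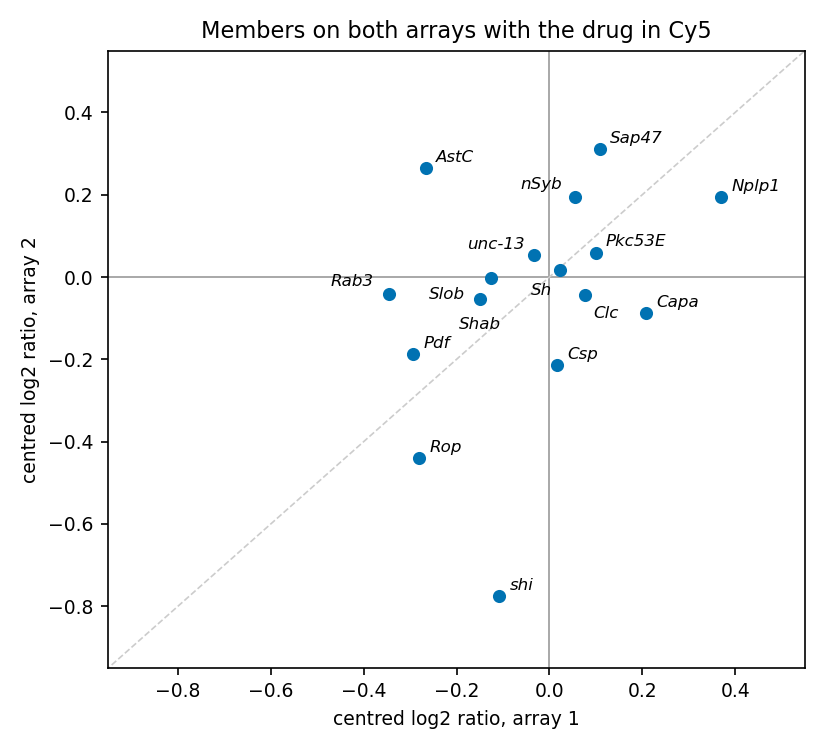
Centred log2 ratio on array 1 (x axis) against array 2 (y axis) for the 16 member genes measured on both arrays with the drug in Cy5; the dashed line marks equal values. Rop and Pdf lie near the line below 0, and shi stands 0.67 apart between the arrays.

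Reading all columns as already drug over normal food left the count at 0 of 8 in limma's test, where 0.00% of all rows passed. At an unadjusted p under 0.05 it was 0 of 8 beside 8.58% of rows. The mean changed sign for 5 of the 8 genes, namely Sh, Capa, AstC, Pkc53E and 14-3-3zeta. Under that reading the arrays share a sign for 3 genes (Rab3, Nplp1 and 14-3-3zeta), and under the first reading for 3 others (Sh, Sap47 and Pkc53E). Over all rows the arrays share a sign in 25.1% and 30.9% under these readings. Nplp1 would then have the largest mean of the 8, at 0.33 (limma adjusted p = 0.599), with array values of 0.37, 0.19 and 0.42. Without centring the count was 0 of 8 under both readings, where 0.414% of rows passed under the first and 3.72% under the other. Under the other reading without centring, the unadjusted p of limma's test was under 0.05 for Sap47 and Nplp1, 2 of 8, beside 30.5% of rows.

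**Figure D5:**
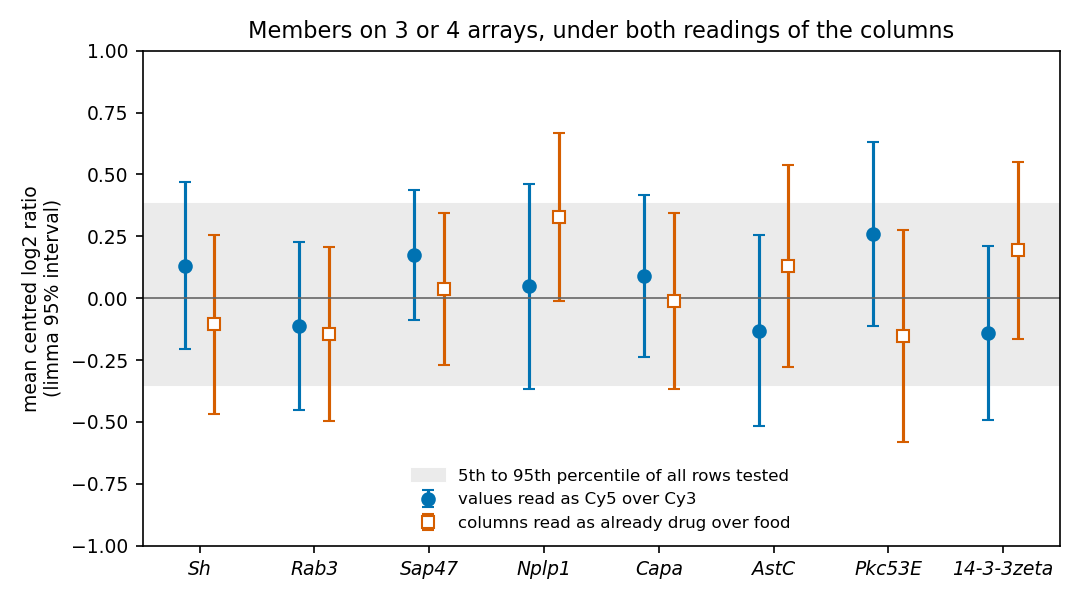
Mean centred log2 ratio with limma's 95% interval (y axis) for the 8 genes on 3 or 4 arrays (x axis), with values read as Cy5 over Cy3 (filled circles) and with columns read as already drug over normal food (open squares). Every interval crosses 0 under both readings, and the grey band spans the 5th to 95th percentile of all tested rows, -0.35 to 0.38, under the first reading.

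If the values are Cy5 over Cy3, a dye term in limma's model separates drug and dye for genes measured in both dye orders. Under the other reading its dye coefficient would stand for the drug, as for Sap47, where both came to 0.036. For every tested member but Sap47, 1 dye order rests on a single array. For the dye 0 of 8 members passed, against 2.48% of rows, and 1 of 8 had an unadjusted p under 0.05, against 15.3% of rows. That gene was Nplp1, with a Cy5 excess of 0.35 (limma adjusted p = 0.258). For the drug beside the dye 0 of 8 passed, against 3.00% of rows, and Pkc53E alone had an unadjusted p under 0.05, at a log2 ratio of 0.35 (limma adjusted p = 0.205), where 20.2% of rows did.

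Wider lists of related genes held no gene past the test either. Of 218 further genes of channels, receptor channels, the vesicle cycle, neuropeptides and their receptors, and neuronal signalling, 95 had a probe, 57 a value and 9 at least 3 arrays. None of the 9 passed limma's test, against 1.34% of all rows, and 1 had an unadjusted p under 0.05, against 12.0%. That gene was Nckx30C, which encodes a potassium-dependent sodium/calcium exchanger, at 0.18, 0.58 and 0.46 on arrays 1 to 3 and a mean of 0.41 ± 0.20 (SD, n = 3, limma adjusted p = 0.335), or 0.10 when the columns are read the other way. The sodium pump subunit gene nrv1 lay at -0.24 (limma adjusted p = 0.684), or 0.33 under the other reading. The photoreceptor phosphatase gene rdgC lay at -0.24 (limma adjusted p = 0.433), or -0.12. The glutamate-gated chloride channel gene GluClalpha lay at -0.03, the peptide-amidating enzyme gene Pal2 at 0.09, the kinase A regulatory gene Pka-R1 at -0.04 and the synaptic scaffold gene dlg1 at 0.06, or at 0.05, 0.12, -0.06 and -0.10 under the other reading. No gene of the wider vesicle list reached 3 arrays, although 16 of its 22 genes with a probe had a value.

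Markers of other cells a head holds, and of gut and reproductive tissue, were tested in the same fit. None of 14 passed, against 1.34% of all rows. At an unadjusted p under 0.05 there were 4 of 14 (chp, ocn, Act88F and Gs2), against 12.0% of all rows. The 5 photoreceptor markers had a median of -0.29 (range -0.45 to 0.26), the 4 genes listed for muscle of -0.17 (-0.43 to 0.16) and the 2 fat body markers of 0.13. Under the other reading these medians were 0.15 (0.05 to 0.29), 0.24 (0.04 to 0.33) and 0.06, so that the first and the second change sign. On the first reading Arr1 alone of the photoreceptor list had a mean above 0, at 0.26, and flw alone of the muscle list, at 0.16. The glial marker Gs2 lay at -0.35, and the markers of gut and reproductive tissue, Amyrel and ocn, at 0.09 and 0.44, or at -0.16, -0.74 and -0.06 under the other reading. Of the markers with a probe, 7 of 11 for fat body and 3 of 7 for gut and reproductive tissue had a value. For muscle it was 5 of 7 and for glia 4 of 7. Among those with a probe and no value were the fat body genes Fbp1 and Yp3 and the testis genes Mst87F and dj. The part of these other cells in the values of the neuronal genes was not tested.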

How the data were processed

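The deposited table held 1 column per array with the authors' normalized ratios, taken as log2. Per the labels they are ratio normalized, and log base, numerator and centring stay unknown. Per the series' design text, the authors quantified slides with GenePix Pro 6.0, normalized in Acuity 4.0 and kept spots with SNR of 3 or more and Rgn R2 of 0.6 or more. Neighbouring duplicates among the 27648 spots were averaged to 13824 clones, and clones annotated with 1 gene to genes, per array. Symbols were updated through Entrez numbers in RefSeq's table (14894 of 15116 spots with 1 symbol, 72 of 74 member spots, with Slob under the array's name). Each array was centred on the median of its clones present on at least 3 arrays; deposited column medians were 0.74, 0.01, 0.18 and 0.59 in array order. The 967 rows present on at least 3 arrays entered a one-class fit against 0 (limma 3.58.1 under R 4.3.3, lmFit and eBayes), with 2-sided p-values adjusted by Benjamini-Hochberg over all rows and called under 0.05. The fit was also run on simulated normal ratios with no dye effect and with shifts larger than any member ratio. That run does not show how it performs on ratios as small as those of the members. All members were named, and up to 3 genes of each wider list with the lowest unadjusted p. Members, lists and tests were chosen with earlier results of these data known. The number of arrays limits the precision, and each array compared its own pools of heads.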

Additional observations from a re-analysis of the deposited data

Results flagged for a closer look

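Outside the list, 2 genes had 1 array far from the other arrays, among 12 groups of 4 arrays checked, where chance gives about 1 in 20. For Pal2, a gene of peptide amidation, array 3 lay at -0.31 against 0.20, 0.23 and 0.25, a gap of 0.918 of the whole range. For Adh, alcohol dehydrogenase of the fat body, array 3 lay at -0.53 against 0.44, 0.33 and 0.47, a gap of 0.861 of the range. Both results hold on the reading as Cy5 over Cy3. With columns read as already drug over normal food, arrays 3 and 4 change sign. Array 4 is then the one below 0 for both genes.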

How the results depend on the processing

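Under 14 alternatives the count of members past limma's test stayed at 0, and the lowest adjusted p was 0.0910, for Nplp1. Of 105 member ratios recomputed, 91 kept their sign and 14 did not. Many of the 91 could not change, because the alternative left the ratio as it was. Such alternatives included the unmoderated test, named genes alone, clones with both duplicate spots, and omitting an array on which the gene had no value. The count therefore does not measure how stable the signs are. With clones in place of genes Sh moved from 0.13 to 0.20. Without centring Rab3 moved to 0.11 and AstC to 0.089. With columns read as already drug over normal food, Sh moved to -0.11, Capa to -0.010, AstC to 0.13, Pkc53E to -0.15 and 14-3-3zeta to 0.19. That reading without centring put the member median at 0.49, beside 0.40 over all rows, with Rab3 at 0.23, AstC at 0.51 and 14-3-3zeta at 0.54, and 2 members (Sap47 and Nplp1) had an unadjusted p under 0.05, against 30.5% of rows. With a dye term Nplp1 moved to -0.068, and 1 member had an unadjusted p under 0.05. Leaving out an array gave Rab3 from -0.19 to 0.0033 and Nplp1 from -0.11 to 0.28, the sign turning without array 1 for both and without array 2 for Nplp1. Without array 3, Sh moved to 0.02, Rab3 to -0.19, Nplp1 to 0.28, Pkc53E to 0.08, AstC to -0.00075 and 14-3-3zeta to -0.0023. Without array 2, AstC moved to -0.33, 14-3-3zeta to -0.25 and Capa to 0.18, and without array 1 AstC moved to -0.06 and Capa to 0.03. Without array 4, Capa moved to 0.06. The rows past the test over the whole table, 13 (11 higher, 2 lower), came to 4 (all higher) without centring, 36 (all higher) and 0 under the other reading without and with centring, 0 in the unmoderated test, 29 with a dye term, and 4 to 21 with an array left out (4, 21 and 7 without arrays 1, 2 and 4). For the dye they were 24 (1 higher in Cy5, 23 lower), 30 (all higher) without centring, and 0 to 62 with an array left out (0, 0, 14 and 62 without arrays 1 to 4). The cause was not tested. Centring on every value of the array shifted array 2 by 0.15. No paired analysis was possible because each array is 1 ratio of the compared samples, in 1 group. The authors' filter, which left 3 members on array 4, limits what can be seen.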
